A study of Drosophila melanogaster with 4 samples.

Results

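The cuticle protein genes of Drosophila melanogaster were followed through the chromatin domain and loop maps of 2 cell lines. Members were the protein-coding genes of the dm6 annotation whose symbols begin with Cpr, Lcp, Ccp84, Acp65, Pcp, Edg78 or Twdl. The rule found 121 genes among 13945 protein-coding genes on arms 2L, 2R, 3L and 3R and chromosomes 4 and X. Among them, Cpr itself on 2L encodes NADPH-cytochrome P450 reductase and no cuticle protein, so it was set aside and 120 genes were described. By prefix they were 70 Cpr, 25 Twdl, 15 Lcp and 7 Ccp84 genes, with Acp65Aa, Pcp and Edg78E as 1 gene each. Arm 3L held 47 of them, 3R held 31, 2R held 27, X held 8, 2L held 7 and chromosome 4 none.

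Cuticle proteins are secreted by the epidermis and pack with chitin into the exoskeleton. Most carry a chitin-binding sequence known as the Rebers-Riddiford consensus (the Cpr, Lcp, Ccp84, Acp65, Pcp and Edg78 genes), while the Tweedle proteins (Twdl) form a separate insect family named after the short, stout animals that mutants give. Their genes are switched on in waves before each larval, pupal and adult cuticle, under control of the moulting hormone ecdysone, and many lie side by side in tandem clusters.

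In situ Hi-C, which joins and sequences pieces of DNA that lie close together in the nucleus, had been done with the enzyme DpnII in BG3 cells, which derive from larval nervous tissue, and in Kc167 cells, which derive from embryos. Each line had 2 replicates, which the authors merged into 1 map before calling topologically associating domains (TADs) and loops. The BG3 map had 2253 TADs and 865 loops and rested on fewer read pairs than the Kc167 map, with 2506 TADs and 1409 loops. The lists hold no expression values, so neither the identity of the lines nor the activity of the cuticle genes could be read from them. TADs on Y numbered 4 in BG3, a male line, and 0 in Kc167, a female line. The study left the sex chromosomes out of its comparison to avoid bias from dosage compensation. The 8 cuticle genes on X are kept here, so their differences between the lines carry that limit. With 1 map a line no difference between the lines has a replicate spread to set it against.

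A cluster was taken as at least 3 members on one arm whose neighbouring 5' ends were at most 20 kb apart. The 120 genes gave 15 clusters with 87 genes, and 33 genes lay outside clusters. Clusters are called by their end genes or by the chromosome band in their symbols (65A for Lcp65Ag3 to Cpr65Az). The clusters spanned 4.18 to 37.3 kb (median 10.3 kb) from first to last 5' end. In 9 of them no other protein-coding gene began inside, and 3 had all their genes on the same strand. The smallest clusters held 3 genes, and the largest, at 65A on 3L, held 18.

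All 15 clusters lay whole in a single TAD in BG3, and all 15 did so in Kc167. The same was true of strong TADs, the domains that remained when the authors called borders with a stricter threshold. The stricter threshold keeps a part of the same borders, so this follows from the first count and is no separate result. Members next to each other along the chromosome, with no other coding gene between them and 5' ends up to 20 kb apart, made 64 pairs. None of the 64 pairs had a TAD border between their 5' ends in BG3, against 10.6% of all neighbouring coding gene pairs (1310 of 12315). In Kc167 the count was again 0 of 64, against 12.1% of all pairs (1496 of 12315). With a limit of 3 counts, 0 of 64 allows a share of up to 4.69%, and the 95% Wilson interval reaches 5.66%, both for counting error only. The pairs of one cluster share their TAD, so they are not 64 separate observations. Counted by length, no border fell in the 161.6 kb between paired members, while the intervals between all coding gene pairs held 24.3 borders per Mb in BG3 and 27.7 in Kc167.

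The members stood closer together than other genes, with a median gap of 1.91 kb against 2.77 kb for all pairs, and this was set beside the shares by splitting the pairs by gap. Among pairs up to 2 kb apart, 34 were cuticle pairs with no border, and a border lay between 6.72% of all such pairs in BG3 and 7.83% in Kc167. From 2 to 5 kb there were 25 cuticle pairs, again with none, and the shares over all pairs were 9.38% in BG3 and 11.3% in Kc167. Only 5 cuticle pairs were 5 to 20 kb apart, also with none, against 16.8% of all such pairs in BG3 and 18.5% in Kc167. In this range, where borders were most frequent, the cuticle pairs are too few to judge by. By orientation, 14 cuticle pairs were divergent, 39 tandem and 11 convergent. Over all pairs of these 3 kinds a border lay between 10.3%, 10.7% and 10.9% in BG3 and 11.6%, 12.6% and 12.0% in Kc167, so the shares differed little by orientation.

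Unbroken clusters were not particular to cuticle genes. The odorant, gustatory and ionotropic receptor genes, another family of tandem copies, formed 16 clusters by the same rule, of which 16 were whole in BG3 and 15 in Kc167. Of their 51 neighbouring pairs, none was divided by a border in BG3 and 1 was in Kc167. The Osi genes on 3R, an insect family expressed in cuticle-forming epithelia, formed 1 cluster of 21 genes over 141 kb. It lay whole in a BG3 TAD of 318 kb and was divided by 2 borders in Kc167.

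**Figure D1:**
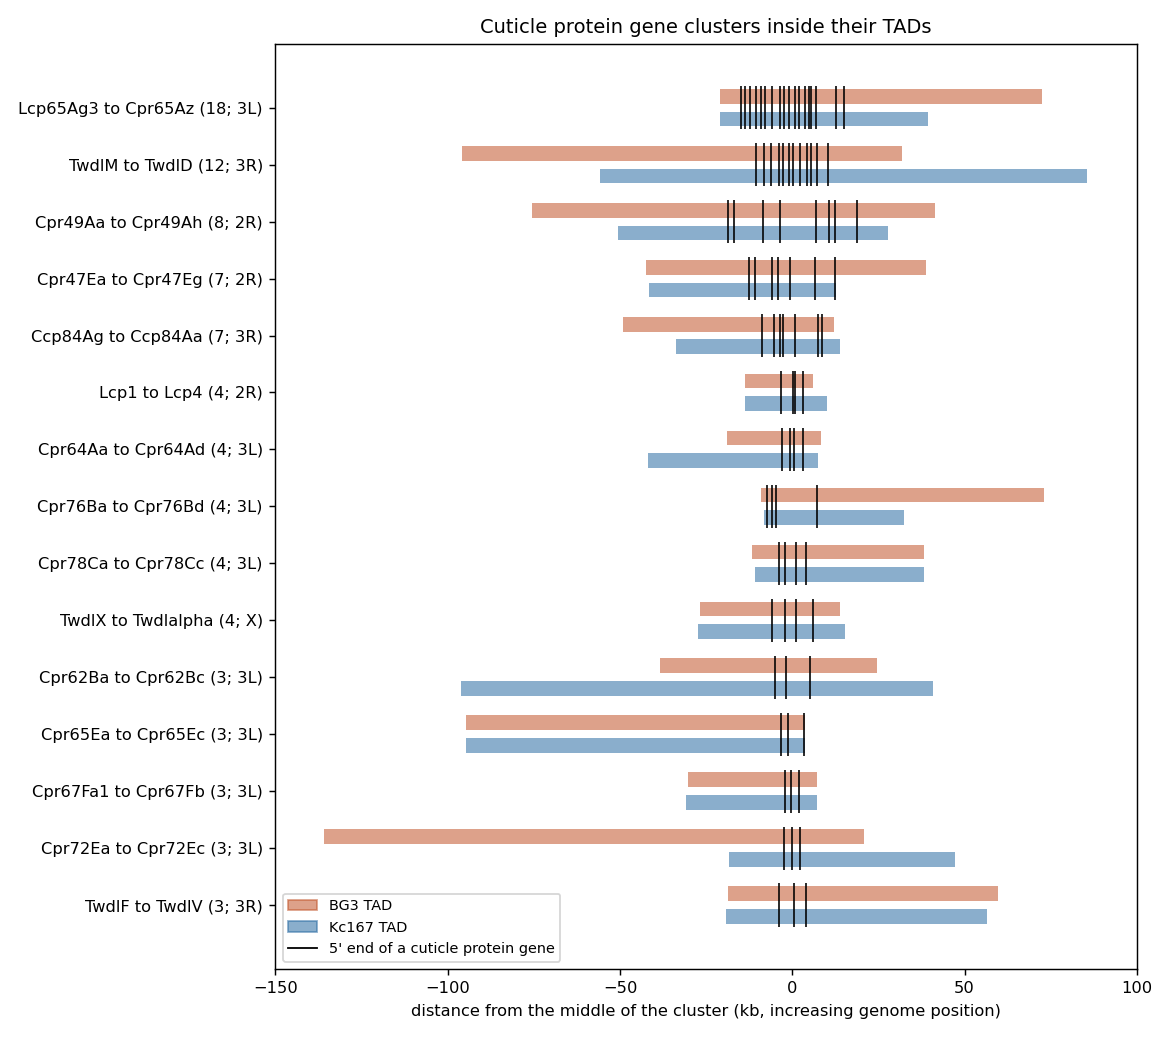
Each row is a cuticle protein gene cluster (number of genes and arm in parentheses), with its BG3 TAD above its Kc167 TAD and a black line at each member's 5' end; the x axis is distance in kb from the middle of the cluster. All 15 clusters lie inside 1 TAD in each map, often close to one end of it, and the TADs differ in how far they reach beyond the genes.

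The TADs around the clusters had a median width of 78.3 kb in BG3 (95% interval of the median 40.7 to 98.3 kb, range 19.7 to 157 kb, n = 15). In Kc167 the median was 54.4 kb (42.7 to 78.4 kb, range 23.6 to 141 kb, n = 15). All TADs had medians of 44.2 kb (BG3) and 39.6 kb (Kc167), and TADs with at least 3 coding genes 50.04 kb in BG3 and 42.0 kb in Kc167. Only the Kc167 interval lay above the median of all TADs in its map. A wide TAD holds more genes, so the widths were also taken gene by gene. In this count the TAD of a cluster enters once for each of its genes. The 120 genes lay in 45 TADs in BG3 and 44 in Kc167, so they are not separate observations. The TAD around a cuticle gene had a median width of 81.2 kb (BG3) and 60.3 kb (Kc167). For the 33 genes outside clusters it was 69.8 kb (BG3) and 55.5 kb (Kc167). For the TAD around any coding gene it was 65.2 kb in BG3 and 49.1 kb in Kc167. Between the maps, the BG3 TAD was the wider for 8 clusters and the Kc167 TAD for 6, the 65E cluster had the same TAD in both, and the median ratio of BG3 to Kc167 width was 1.02.

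**Figure D2:**
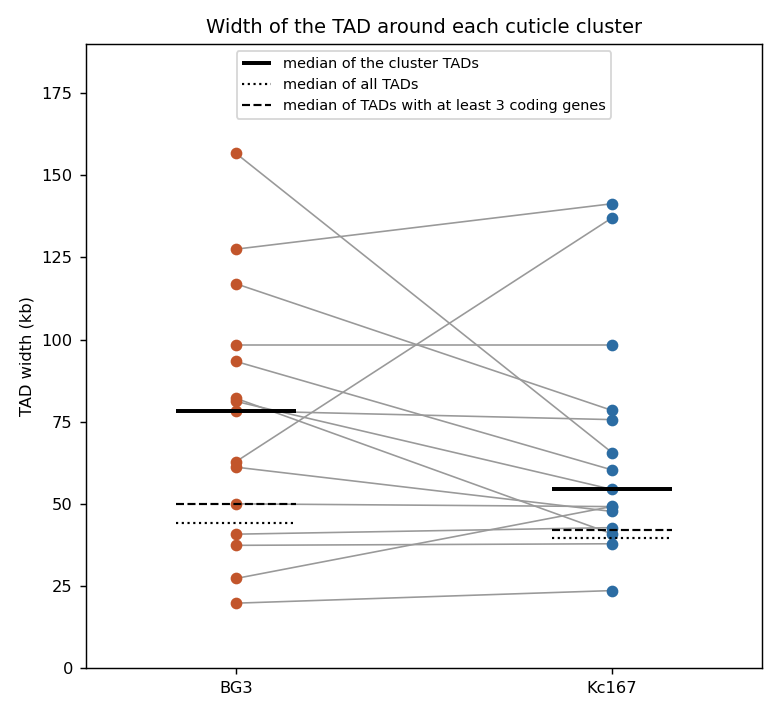
TAD width in kb around each of the 15 clusters in BG3 (left) and Kc167 (right), with a line joining the same cluster; thick bars are medians of the cluster TADs, dotted bars medians of all TADs and dashed bars medians of TADs with at least 3 coding genes. The lines cross in both directions, with 72E at 157 kb in BG3 and 65.6 kb in Kc167, and 62B at 62.8 kb in BG3 and 137 kb in Kc167.

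A cluster filled only part of its domain. From first to last 5' end, the clusters covered 3.02% to 32.5% of their TAD in BG3 (median 17.6%) and 6.71% to 49.5% in Kc167 (median 15.8%). The 15 BG3 TADs together held 281 coding genes, of which 87 were cuticle protein genes, and the Kc167 TADs held 223, of which 88 were. Over both ends of all clusters, the outermost gene stood a median of 21.1 kb from the TAD end on its side in BG3 and 23.1 kb in Kc167 (30 ends each). The smallest such distances were 342 bp in BG3 (Cpr65Ec) and 226 bp in Kc167 (Cpr47Eg).

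The 18 genes of the 65A cluster run from Lcp65Ag3 to Cpr65Az over 29.8 kb of 3L and include the larval genes Lcp65Aa to Lcp65Ag3 and Acp65Aa, which encodes an adult cuticle protein. The minus strand carries 12 of them and the plus strand 6, and CG13297 is the only other coding gene that begins inside. The BG3 TAD was 93.3 kb wide with 32 coding genes, and the Kc167 TAD 60.3 kb with 26. Both began at the same base, 3L position 6125053, 5936 bp before the Lcp65Ag3 5' end. They ended 33.0 kb apart, at 6218379 in BG3, 357 bp from the 5' end of LanA (a laminin chain), and at 6185349 in Kc167, 160 bp from CG43293. The Kc167 map also had a border 661 bp from the BG3 one, so it divided the stretch that was a single TAD in BG3. Neither list marked the shared left border as strong, and its TAD separation score, which is lower where fewer contacts cross, was 0.0488 in BG3 and 0.129 in Kc167. It is the midpoint of a DpnII fragment of 212 bases, shown because this stretch bounds the largest cluster at an identical place in both lines. Capitals mark the DpnII sites:

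Left border fragment of the 65A TAD (dm6, chr3L:6124948-6125159, plus strand): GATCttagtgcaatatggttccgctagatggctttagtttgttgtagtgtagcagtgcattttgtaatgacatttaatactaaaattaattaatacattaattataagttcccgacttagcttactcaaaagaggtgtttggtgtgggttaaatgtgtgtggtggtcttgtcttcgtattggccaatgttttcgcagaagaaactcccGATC

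The Tweedle cluster on 3R, TwdlM to TwdlD, had 12 genes in 20.9 kb with no other coding gene inside. Its TAD was 128 kb wide in BG3 and 141 kb in Kc167, but these were different stretches of the arm. The BG3 TAD reached from 26533784 to 26661300 and took in plum and the cell polarity gene scrib. The Kc167 TAD reached from 26573881 to 26715231 and took in beat-VII and amon, which encodes a prohormone convertase. TwdlQ, 53.6 kb beyond TwdlD, therefore lay outside the cluster's TAD in BG3 and inside it in Kc167. Tubby (Tb), which RefSeq lists with the synonym TwdlA and the symbol rule does not take, began 16.4 kb beyond TwdlD and lay in the cluster's TAD in both maps.

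**Figure D3:**
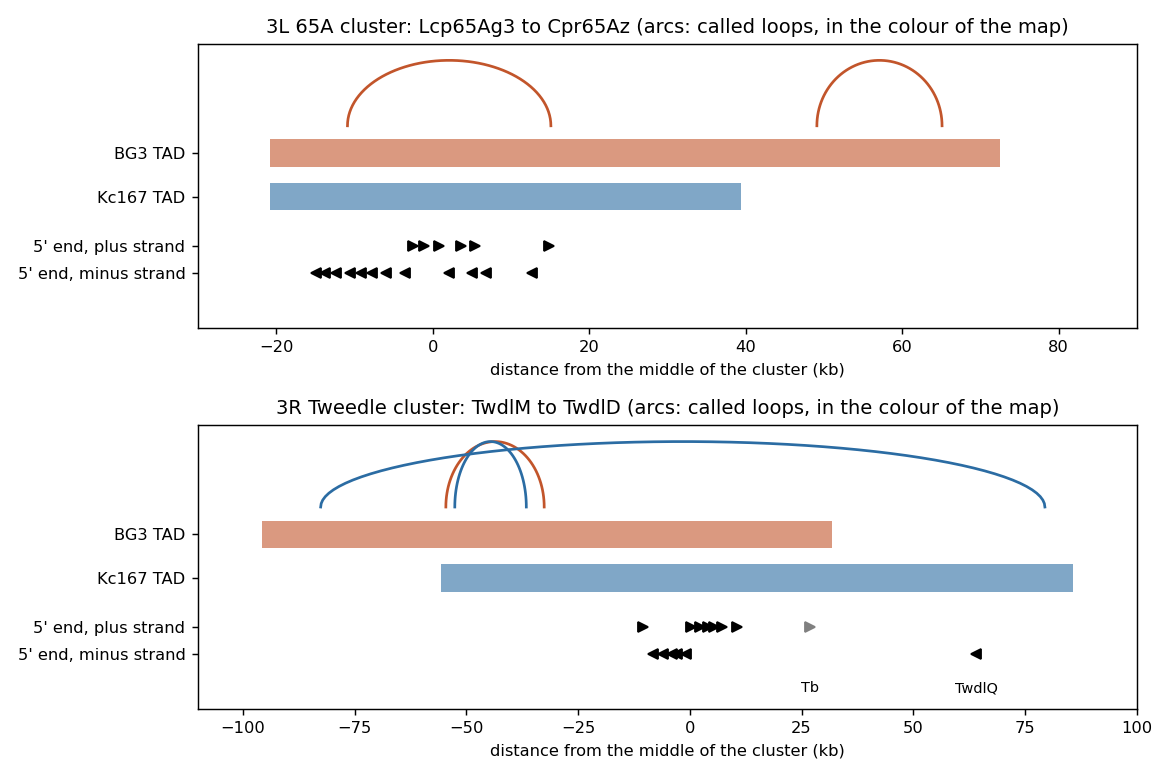
The 65A cluster and the 3R Tweedle cluster, with BG3 TADs above Kc167 TADs, member 5' ends as arrowheads by strand (Tb in grey) and called loops as arcs in the colour of their map; the x axis is distance in kb from the middle of each cluster. The 65A TADs share their left end, and the Tweedle TADs overlap over the 12 clustered genes and Tb but not over TwdlQ.

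The 49A cluster on 2R, 8 genes over 37.3 kb, was the longest and the most interleaved, with 7 other coding genes beginning inside it, among them the odorant receptor gene Or49a. Its TAD was 117 kb wide in BG3 and 78.4 kb in Kc167. Both ends of the BG3 TAD were borders at the same base in Kc167, and Kc167 had further borders 24947 bp and 13627 bp inside them. At 47E, with 7 genes in 25.05 kb, the TAD was 81.2 kb wide in BG3 and 54.4 kb in Kc167. The Kc167 TAD ended 226 bp past the 5' end of Cpr47Eg, whose nearest BG3 border was 26071 bp farther out.

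The 7 Ccp84A genes lie in the Antennapedia complex, beside the homeotic gene labial (lab) and the ecdysone-dependent cuticle gene Edg84A. Both of these shared the TAD of the Ccp84A genes in each map. The TAD was 61.1 kb wide in BG3 and 47.7 kb in Kc167, and its right ends were 1912 bp apart. The next homeotic gene, proboscipedia (pb), lay in the next TAD in both maps. At 78C, 3 Cpr78C genes and Edg78E, in 7.78 kb, shared a TAD of 49.97 kb (BG3) and 49.1 kb (Kc167) with Pc, which encodes the Polycomb protein.

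The larval genes Lcp1 to Lcp4 on 2R had the narrowest cluster TAD in each map, 19.7 kb in BG3 and 23.6 kb in Kc167, with the left end at the same base next to CSN7. The 64A cluster had TADs of 27.2 kb (BG3) and 49.2 kb (Kc167), and the 76B cluster TADs of 82.1 kb (BG3) and 40.8 kb (Kc167). The 67F cluster (37.3 kb in BG3, 37.8 kb in Kc167) and TwdlX to Twdlalpha on X (40.7 kb in BG3, 42.7 kb in Kc167) had nearly the same TAD in the 2 maps. TwdlF to TwdlV on 3R had TADs of 78.3 kb (BG3) and 75.6 kb (Kc167).

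Of the 30 ends of the cluster TADs, 6 were within 20 bp of the matching end in the other map, 9 were 20 bp to 2 kb apart and 15 were more than 2 kb apart. Both ends were within 2 kb for 4 clusters, at 65E, 67F, 78C and TwdlX to Twdlalpha. Many of the other ends still had a border of the other map nearby. Of the BG3 ends, 20 of 30 were within 2 kb of any Kc167 border, against 53.2% of all BG3 borders. Of the Kc167 ends, 18 of 30 were within 2 kb of any BG3 border, against 47.8% of all Kc167 borders. At 20 bp the counts were 10 of 30 in BG3 (27.7% of all its borders) and 8 of 30 in Kc167 (24.8%). Over single genes, 21 of 120 cuticle genes (17.5%) had a TAD with both ends within 2 kb in the 2 maps, in 9 TADs, against 20.5% of all coding genes.

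The share of strong borders was lower at the cluster TADs than in the whole lists, a difference given without a test. They made 7 of 30 ends in BG3, against 43.6% of all BG3 borders, and 8 of 30 ends in Kc167, against 52.0% of all Kc167 borders. The median score was 0.00355 at the BG3 ends (-0.00675 over all BG3 TADs) and -0.0683 at the Kc167 ends (-0.0279 over all Kc167 TADs), above the map's median in BG3 and below it in Kc167. A coding gene began within 2 kb of 23 of 30 ends in BG3 (62.0% of all borders) and 22 of 30 in Kc167 (65.5%). The nearest gene was a member by the symbol rule at 4 ends in BG3 and 5 in Kc167. Otherwise it was another gene, for example ash1, 97 bp from the right border of the 76B TAD in BG3. At the right border of the TwdlM to TwdlD TAD in BG3 it was Tb, at 4860 bp, which the rule does not take.

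Few cuticle genes began near a border. In BG3, 5 of 120 had their 5' end within 2 kb of a border (4.17%, 95% Wilson interval 1.79 to 9.38%), against 16.9% of all coding genes. In Kc167 there were 6 of 120 (5.00%, 2.31 to 10.5%), against 19.9%. The median distance to the nearest border was 17.9 kb in BG3 (14.1 to 21.6 kb) and 15.4 kb in Kc167 (12.5 to 18.7 kb), against 11.7 kb in BG3 and 9.15 kb in Kc167 over all coding genes. Clustered genes were 2 of 87 near a border in BG3 and 3 of 87 in Kc167, with median distances of 19.4 kb (BG3) and 17.2 kb (Kc167). Of the 33 genes outside clusters, 3 were near a border in each map (9.09%), against 16.9% (BG3) and 19.9% (Kc167) of all genes. That share rests on 3 genes and has no interval here, so it is not read as a difference. Median distances of the 33 genes, 12.2 kb (BG3) and 9.26 kb (Kc167), were close to those of all genes.

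The members near a border were 7 genes in all. Of these, 3 lay at a border of the same base in both maps: Cpr57A at 791 bp, Cpr65Ec at 342 bp and Cpr73D at 1238 bp. The Cpr73D border was strong in both maps, and the Cpr65Ec border was strong in BG3. Cpr76Ba was 1777 bp from a border in BG3 and 1081 bp from one in Kc167. Cpr51A was 1548 bp from a border in BG3 and 2045 bp from one in Kc167, just outside the limit. Cpr60D passed in Kc167, at 1822 bp, against 15995 bp in BG3, and Cpr47Eg in Kc167, at 226 bp, against 26297 bp in BG3.

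**Figure D4:**
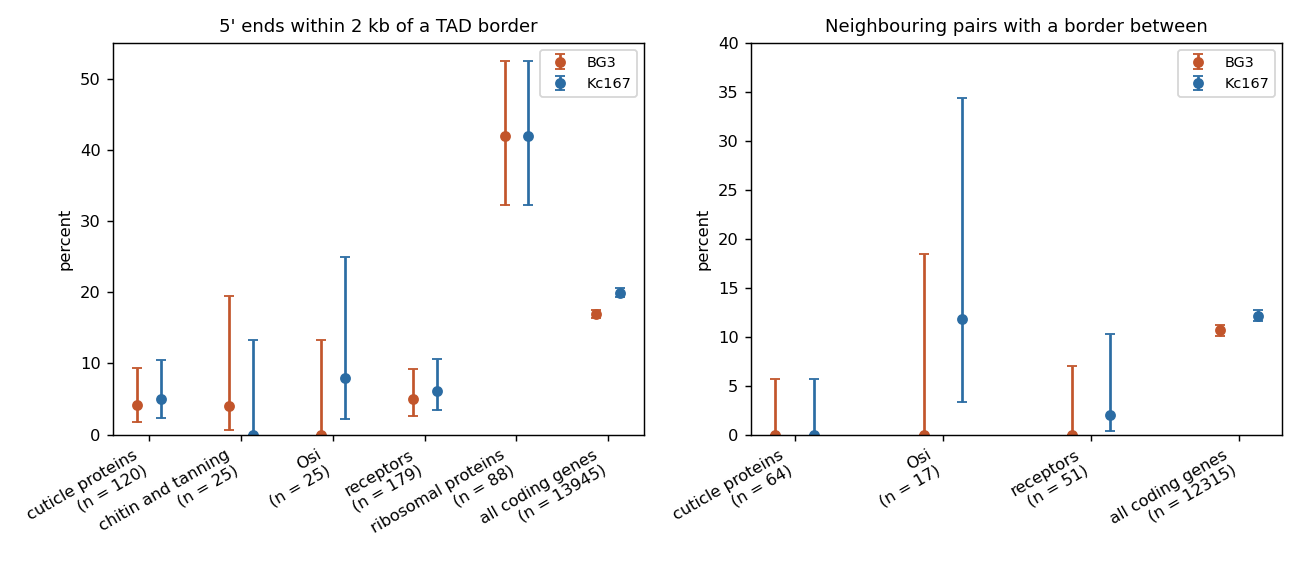
Left, percent of genes with a 5' end within 2 kb of a TAD border; right, percent of neighbouring pairs with a border between their 5' ends; each list has BG3 left of Kc167, and bars are 95% Wilson intervals for counting error only. Cuticle genes stand at 4.17% in BG3 and 5.00% in Kc167, near the receptor genes and below all coding genes, and ribosomal protein genes stand at 42.0% in both maps.

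Other gene lists gave the range of these shares. The receptor genes stood at 9 of 179 within 2 kb of a border in BG3 (5.03%) and 11 of 179 in Kc167 (6.15%). The cytoplasmic ribosomal protein genes, which every cell uses, stood at 37 of 88 in each map (42.0%). A list of 25 genes of chitin synthesis, chitin processing and cuticle tanning, such as the chitin synthase gene kkv and the dopa decarboxylase gene Ddc, had 1 gene near a border in BG3 and none in Kc167. That gene was kkv, 1129 bp from a border in BG3 and 21292 bp in Kc167.

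The 33 genes outside clusters lay in 30 TADs in each map, with median widths of 69.8 kb (BG3) and 55.5 kb (Kc167). Cpr50Ca and Cpr50Cb, 24.9 kb apart, shared a TAD in both maps, as did TwdlC and TwdlT, and Cpr97Ea and Cpr97Eb. Cpr97Ea and Cpr97Eb lay in a TAD of 29.3 kb with the same 2 ends in both maps, and so did Cpr66Cb (23.2 kb) and Cpr67B (28.6 kb). The widest differences were at Cpr56F, in a TAD of 375 kb (BG3) and 37.8 kb (Kc167), and Cpr11A, in a TAD of 57.7 kb (BG3) and 282 kb (Kc167). Cpr11A lies on X, which the male and female lines hold in different dosage. Pcp, a pupal cuticle protein gene on 2L, lay in a TAD of 61.6 kb (BG3) and 55.2 kb (Kc167).

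The upstream sequences of the cuticle genes shared a feature the symbol rule did not use. In the 100 bases before the 5' end, on either strand, the TATA box letters TATAAA occurred in 84 of 120 cuticle genes (70.0%), against 20.1% of all coding genes and 12.5% of the ribosomal protein genes. TATCGATA, the core of the element bound by DREF, occurred in 0 of 120 cuticle genes, against 6.20% of all coding genes and 22.7% of the ribosomal protein genes. GAGAG, the letters bound by GAGA factor, occurred in 10 of 120 cuticle genes (8.33%), against 13.2% of all coding genes. These matches are letters in a window and no measure of binding.

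Loops were called from 2 kb pixels, so an anchor is a 2 kb stretch. In BG3, 5 of 120 cuticle genes had their 5' end in a loop anchor (4.17%), against 3.12% of all coding genes, and in Kc167 4 of 120 did (3.33%), against 3.97%. These shares were near those of all genes in both maps. The genes belonged to 4 loops in each map, and only the Twdlbeta loop was called at the same pixels in both.

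**Figure D5:**
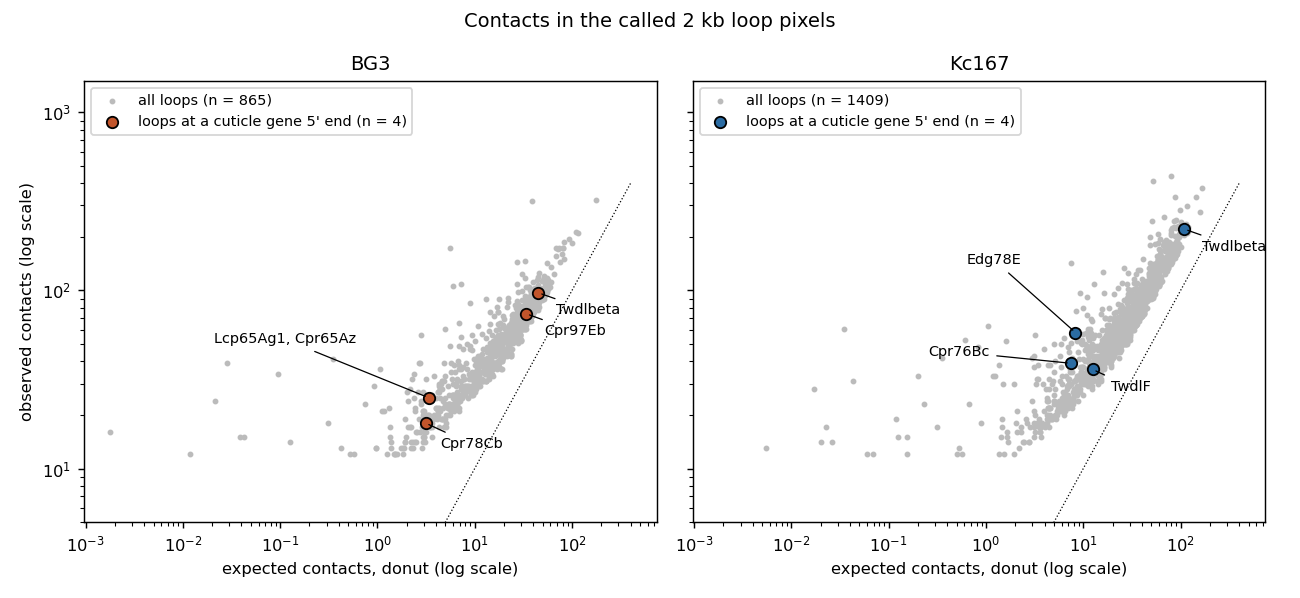
Observed contacts against contacts expected from the surrounding donut of pixels, both on log scales, for all loops of BG3 (left, n = 865) and Kc167 (right, n = 1409), with loops at a cuticle gene 5' end coloured and named; the dotted line marks equal values. The Twdlbeta loop has high counts in both maps, and the Lcp65Ag1 to Cpr65Az loop and the 78C loops lie at low expected counts.

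The loop at Twdlbeta on 2R joined an anchor with its 5' end to one 16 kb away without a coding 5' end. It had 97 observed contacts against 45.1 expected in BG3 (2.15 times) and 221 against 109 in Kc167 (2.02 times). Both ratios were close to the median of loops within 2 kb of that length, 2.18 in BG3 (n = 281) and 2.15 in Kc167 (n = 385). Over all loops the median was 2.71 in BG3 and 2.48 in Kc167.

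At 65A, a BG3 loop had a cuticle gene at each anchor. It joined Lcp65Ag1 with Cpr65Az, 26 kb apart and near the opposite ends of the cluster, with 25 observed contacts against 3.35 expected (7.46 times, HiCCUPS q-value against the donut 3.91e-09). The nearest Kc167 loop was 38 kb away at its farther anchor. The BG3 call rests on a single pixel with few contacts, and BG3 loops within 2 kb of its length (n = 124) had medians of 35.5 observed and 8.95 expected contacts. In the Lcp65Ag1 anchor, 21.9% of the 31-base words occur elsewhere in the genome, against 0% in the Cpr65Az anchor and a median of 0% over all BG3 anchors. The 65A cluster had the most repeated sequence of the 15, at 16.4% of its words, against 12.65% over all arms. Its Lcp65Ag, Lcp65Ab and Cpr65Ax genes come in numbered copies. The part of repeated sequence in the loop call was not tested. The upstream sequences of the joined pair are shown with those of the other Lcp65Ag copies, with TATAAA in capitals on either strand:

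Lcp65Ag1 (chr3L:6135275-6135374, minus strand): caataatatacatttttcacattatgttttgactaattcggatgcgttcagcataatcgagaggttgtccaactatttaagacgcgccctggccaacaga
Lcp65Ag2 (chr3L:6133594-6133693, minus strand): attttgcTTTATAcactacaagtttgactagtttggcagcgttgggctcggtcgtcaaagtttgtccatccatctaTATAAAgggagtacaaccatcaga
Lcp65Ag3 (chr3L:6130990-6131089, minus strand): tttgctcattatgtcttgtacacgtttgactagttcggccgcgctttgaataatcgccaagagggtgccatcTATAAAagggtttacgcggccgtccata
Cpr65Az (chr3L:6160714-6160813, plus strand): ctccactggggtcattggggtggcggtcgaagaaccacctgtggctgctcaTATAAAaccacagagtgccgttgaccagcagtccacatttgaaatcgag

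On the gene's strand, TATAAA started 49 bases before the 5' end in Cpr65Az, 24 in Lcp65Ag2 and 28 in Lcp65Ag3. Lcp65Ag1 did not have these exact letters in its window.

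At 78C, loops in both maps joined the cluster to the gene Rab26, at pixels 2 kb apart. In BG3 the anchor held the 5' end of Cpr78Cb, and the loop of 32 kb had 18 observed contacts against 3.13 expected (5.76 times). BG3 loops within 2 kb of that length (n = 97) had medians of 40 observed and 13.4 expected contacts. In Kc167 the anchor held the 5' end of Edg78E, and the loop of 28 kb had 58 observed contacts against 8.32 expected (6.97 times). Kc167 loops within 2 kb of that length (n = 182) had medians of 55 observed and 15.8 expected contacts. Each anchor was offset by 2 kb, the width of a pixel, between the maps. Both calls rest on a single pixel, and in both the lower-left neighbourhood had an expected count of 0, as at 65A. Among loops within 2 kb of the length, this held for 12 of 97 in BG3 and 67 of 182 in Kc167, and for 53 of 124 BG3 loops near the length of the 65A loop. The sequences before the 2 genes are given because their 5' ends lie in these adjacent anchors, with TATAAA in capitals:

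Cpr78Cb (chr3L:21294392-21294491, plus strand): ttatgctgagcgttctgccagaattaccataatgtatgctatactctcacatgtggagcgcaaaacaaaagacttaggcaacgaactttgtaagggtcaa
Edg78E (chr3L:21297804-21297903, minus strand): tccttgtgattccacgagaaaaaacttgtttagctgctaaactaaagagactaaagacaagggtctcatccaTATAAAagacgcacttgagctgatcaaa

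In Edg78E, TATAAA started 28 bases before the 5' end, and Cpr78Cb had none in its window.

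Other loops at members were called in a single map. In BG3, Cpr97Eb was joined over 16 kb to CAH9, a carbonic anhydrase gene, with 74 observed contacts against 33.8 expected (2.19 times), and the nearest Kc167 loop was 6 kb away. In Kc167, Cpr76Bc was joined over 26 kb to a stretch in CG9449, outside the cluster's TAD. That call, on a single pixel, had 39 observed contacts against 7.45 expected (5.24 times) and again a lower-left expected count of 0. TwdlF in Kc167 was joined over 106 kb, also across the TAD border, with 36 observed contacts against 12.5 expected (2.88 times). Its HiCCUPS q-value against the horizontal neighbourhood was 0.0383, so it did not pass when all 4 q-values had to be under 0.01. The upstream sequence of TwdlF, shown because its contact was the longest, has TATAAA, in capitals, starting at the same 28 bases before the 5' end as in Edg78E:

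TwdlF (chr3R:4246920-4247019, plus strand): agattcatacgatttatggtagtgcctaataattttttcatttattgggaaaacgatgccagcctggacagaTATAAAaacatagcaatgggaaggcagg

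Further loops touched clusters at places other than a member's 5' end. At Ccp84A the same pixels were called in both maps, joining the 5' end of Edg84A to the body of Ccp84Ab, with 68 observed contacts in BG3 (2.26 times the expected) and 114 in Kc167 (2.03 times). At 49A, BG3 alone had a loop with both anchors within the cluster, between CG8501 and CG30048, with 79 observed contacts (1.91 times the expected). A wider count took loops that touched a cluster, spanned it with anchors up to 200 kb apart, or had both anchors in its TAD. There were 13 (of 865 loops) at 11 clusters in BG3 and 12 (of 1409) at 8 clusters in Kc167. Loops with both anchors inside a cluster were 2 in BG3, at 65A and 49A, and 0 in Kc167. Matching counts at other TADs or gene runs were not made, so these numbers have no background to be set against.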

How the data were processed

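The Hi-C reads had been aligned to dm6, and the authors merged the 2 replicates of each line (BG3, Kc167) into 1 map. Per the submitters' processing notes and the study's methods, BWA 0.7.15-r1140, Juicer 1.7.6 and HiCExplorer were used. TADs were called on DpnII fragments with a minimum difference in TAD separation score of 0.04, and strong TADs with 0.08. Loops were called with HiCCUPS at 2 kb.

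The deposited TAD lists hold positions and a score, which the file gives for the start of each TAD: all 482 BG3 and 580 Kc167 TADs with the same start but another end in the strong list kept it. The deposited loop lists hold observed contact counts, the expected signal from 4 neighbourhoods and 4 q-values, all as the authors computed them. Raw contacts were not used here, so depth at single genes is unknown.

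Gene starts came from Ensembl release 115, and sequences from the RefSeq copy of the same assembly, whose arms were all longer than the last positions in the lists. Of the borders, 93.9% in BG3 and 94.9% in Kc167 lay at DpnII fragment midpoints of this sequence. All 120 cuticle gene symbols matched RefSeq. Python 3.11.15, NumPy 2.4.6, pandas 2.3.3, SciPy 1.17.1 and Matplotlib 3.10.9 were used, and the border, cluster and anchor counts were checked on simulated positions.

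A gene's TAD is the one that holds its 5' end. Values were set beside those of all protein-coding genes or all TADs, with 95% Wilson intervals or order-statistic intervals of medians that cover counting error only. No test was made, because each line has 1 map and clustered genes share TADs. Members were named at the ends of a cluster, within 2 kb of a border or in a loop anchor, and other genes where they began nearest to a border of the largest clusters' TADs or in the other anchor of such a loop. Further genes, such as those outside clusters with their TADs, were chosen after their values were seen. The members and lists were chosen with earlier results of these data known. Other distances, TAD lists, cluster rules and anchor widths were tried as alternatives.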

Additional observations from a re-analysis of the deposited data

How the results depend on the processing

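No paired analysis was possible because the lists come from merged replicates, and for the same reason no replicate could be left out. Of 67 values recomputed under 14 settings, 47 stayed within the range set for them and 20 moved. Within 1 kb of a border, the share of cuticle genes was 1.67% in BG3 (11.9% of all genes). Within 5 kb it was 12.5% in BG3 (29.1% of all genes) and 14.2% in Kc167 (34.2% of all genes). With strong TADs it was 1.67% in BG3 (6.05% of all genes) and 1.67% in Kc167 (10.5% of all genes). The median distance to a strong border was 79.3 kb in BG3 and 58.3 kb in Kc167, against 50.5 kb in BG3 and 27.0 kb in Kc167 over all genes, and strong TADs with at least 3 cuticle genes had median widths of 262 kb (BG3) and 225 kb (Kc167). Of 120 cuticle genes, those with the same TAD in both maps numbered 3 with strong TADs, 7 with ends within 20 bp and 34 within 10 kb. The shares of all coding genes were not taken at these settings, so whether these counts are low or high cannot be told.

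Counting any overlap of the gene body, 11 cuticle genes met an anchor in BG3 (9.17%, against 10.2% of all genes) and 11 in Kc167 (9.17%, against 14.7%). With anchors extended by 1 kb, 12 did in BG3 (10.0%, against 6.27% of all genes) and 8 in Kc167 (6.67%, against 8.56%). With 5 kb, 38 did in BG3 (31.7%, against 17.1%) and 25 in Kc167 (20.8%, against 24.7%). Neighbouring members of a cluster can meet the same anchor, so these are counts of genes and not of separate loops. The BG3 share was above that of all genes at each of the 3 anchor widths and below it for gene bodies. The Kc167 share was below in all 4. The cause was not tested. With at least 5 members, 5 of 5 clusters were whole in each map. This count, and the one at 10 kb below, take parts of the same 15 whole clusters, so they could not have come out otherwise. Linking at 10 kb gave 16 of 16 whole, and at 50 kb 15 of 16, the exception being TwdlT, Cpr97Ea and Cpr97Eb, which lay in 2 TADs in each map. BG3 rests on fewer read pairs, and the part of depth in these calls was not tested here.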
